A study of Homo sapiens with 12 samples.

Results

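HDGF, INTS13, INTS11, ZEB1 and ZNF609 were each immunoprecipitated in 2 ChIP-seq libraries from wild-type HEK293T cells, a human embryonic kidney line, and the 6 genes described here, IRF2BP2, EPHX1, ARF1, C1orf35, CDT1 and APRT, were chosen by their strong HDGF peaks at a gene end. They are 6 of 19974 protein-coding genes on chromosomes 1 to 22 and X. The HDGF, INTS13 and ZEB1 antibodies came from Proteintech, the INTS11 antibody from Atlas, and the ZNF609 antibody was made for earlier work. All 5 proteins were assayed in untreated cells fixed with formaldehyde, and 2 input libraries have no peak list, so every result is a description of 10 peak lists. Nothing in the labels says whether the 2 libraries of a protein came from separate cultures.

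ChIP-seq counts the DNA fragments that an antibody brings down, and a peak is a stretch with more of them than the background. HDGF, hepatoma-derived growth factor, is a chromatin-bound protein with a PWWP domain, a fold that reads histone marks. Integrator is a large complex that cuts nascent RNA and ends transcription, at small nuclear RNA genes and close to the starts of many protein-coding genes. INTS11 is its endonuclease and INTS13 one of its outer subunits. ZEB1 is a zinc-finger repressor that binds E-box motifs, and ZNF609 is another nuclear zinc-finger protein.

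The genes lie at 4 loci of GRCh38, and for each the strand is given where the RefSeq promoter table holds it. IRF2BP2, a corepressor partner of the transcription factor IRF2, spans chr1:234604269-234610178 on the minus strand. EPHX1, the microsomal epoxide hydrolase that detoxifies reactive epoxides, spans chr1:225810124-225845563 on the plus strand. ARF1, the small GTPase that recruits coat proteins to the Golgi, spans chr1:228082708-228099212 on the plus strand. C1orf35 follows it at chr1:228100731-228103325, with 1518 bp between them. CDT1, which helps to load the replicative helicase at origins, spans chr16:88803789-88809258 on the plus strand. APRT, which turns adenine into AMP in purine salvage, spans chr16:88809339-88811928 on the minus strand. The 3′ ends of CDT1 and APRT face each other across 80 bp, so HDGF peaks counted at one gene end were mostly counted at the other. ARF1 and C1orf35 likewise shared their strongest HDGF peak. The strongest HDGF gene-end peaks of the 6 genes therefore lay at 4 separate loci, not 6.

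The starts of IRF2BP2, EPHX1 and CDT1 lay outside HDGF peaks in both HDGF lists, and the 250 bases before each start are shown for that reason. They come from RefSeq (GRCh38.p14), run 5′ to 3′ toward the gene, and have GC boxes (GGGCGG, or CCGCCC on the other strand, overlapping matches included) in capitals. They span chr1:234610179-234610428 (minus strand), chr1:225809874-225810123 (plus strand) and chr16:88803539-88803788 (plus strand).
IRF2BP2: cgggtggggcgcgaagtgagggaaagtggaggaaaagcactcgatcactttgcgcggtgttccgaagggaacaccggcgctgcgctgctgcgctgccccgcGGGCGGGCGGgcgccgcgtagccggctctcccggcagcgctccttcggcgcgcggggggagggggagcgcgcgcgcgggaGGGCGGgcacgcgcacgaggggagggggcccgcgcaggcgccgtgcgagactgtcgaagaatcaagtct
EPHX1: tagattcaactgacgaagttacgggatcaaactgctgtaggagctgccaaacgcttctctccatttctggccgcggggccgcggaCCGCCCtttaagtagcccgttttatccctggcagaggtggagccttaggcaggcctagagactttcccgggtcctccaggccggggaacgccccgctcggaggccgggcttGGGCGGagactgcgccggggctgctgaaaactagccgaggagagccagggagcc
CDT1: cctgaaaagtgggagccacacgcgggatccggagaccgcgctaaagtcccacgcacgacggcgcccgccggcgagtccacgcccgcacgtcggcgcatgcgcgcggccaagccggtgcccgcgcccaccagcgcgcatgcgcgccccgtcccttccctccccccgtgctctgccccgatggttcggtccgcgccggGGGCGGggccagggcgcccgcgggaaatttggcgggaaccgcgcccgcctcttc
All 5 of the genes with a promoter entry held a GC box within the 300 bases from 250 before to 50 after the start, against 58.5% of 13792 promoters. None held a CCAAT box (CCAAT, 37.1% of promoters), a TATA box (TATAAA, 10.0%) or the ZEB1 E-box (CAGGTG, 19.6%). Only APRT held the ETS core (CCGGAAG, 14.6%). The letters TGCGCA, searched as a short form of the NRF1 motif, were also absent (11.1% of promoters). Other forms of that motif were not searched, and the CDT1 bases above hold gcgcatgcgc, which the search does not count. Each run of letters was searched on both strands. GC content ran from 65.0% at EPHX1 to 74.7% at ARF1, against a median of 62.7% over all promoters. The observed over expected CpG ratio ran from 0.918 at EPHX1 to 1.23 at IRF2BP2, against a median of 0.767. These 5 windows were all above the median in GC and in CpG, but EPHX1 and APRT stood only at percentiles 58.3 and 66.4 for GC. A match is a run of letters, not a binding site. C1orf35 has no promoter entry.

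The values that chose the genes are given first, as a description. The authors' fold is the fragment pileup at a summit over the background, and in each list every fold was a whole number of fragments plus 1, over 1 constant background plus 1. HDGF replicate 1 had a background of 4.07 fragments and HDGF replicate 2 one of 3.31. IRF2BP2 had the strongest HDGF gene-end peak of the set, with 39 fragments and a 7.89-fold summit in replicate 1 and 35 fragments and an 8.36-fold summit in replicate 2. Among 19974 genes ranked by their strongest peak within 1 kb of either end it stood at rank 3 and rank 2. The exact Poisson 95% intervals of those counts, which cover counting error only, were 27.7 to 53.3 and 24.4 to 48.7 fragments, so the 2 libraries overlapped.

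EPHX1 reached 34 fragments (6.90-fold) in HDGF replicate 1 and 27 fragments (6.50-fold) in HDGF replicate 2, at ranks 12 and 31. The peak shared by ARF1 and C1orf35 reached 31 fragments (6.31-fold) and 28 fragments (6.74-fold), at ranks 26 and 20. CDT1 and APRT reached 27 fragments (5.52-fold) and 24 fragments (5.81-fold), at ranks 108 and 103. The order of the loci was the same in both lists except for EPHX1 and ARF1, which changed places in replicate 2, and all these intervals overlapped, from 15.4 to 35.7 fragments for CDT1 and APRT in replicate 2 at the low end to the IRF2BP2 values above. The choice gives no cut-off. Counting every gene that ranked 108 or better in both HDGF lists gives 66 genes, of which 60 are not among the 6.

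At IRF2BP2 the HDGF peak was a single broad block over the 3′ part of the gene. It covered chr1:234602192-234608975 in replicate 1, a width of 6784 bp, and chr1:234601171-234608742 in replicate 2, a width of 7572 bp, and so ran past the 3′ end in both. The summits lay 2594 and 2808 bp downstream of the start, 214 bp apart, inside the gene and not at the 3′ end itself. All 9 other lists had a summit within 1000 bp of the one in HDGF replicate 1, and 7 of the 9 within 500 bp. The 1-Mb stretch that holds the gene had 206 to 349 summits in each list. How often summits come this close elsewhere in it was not tested. INTS13 had summits at 2852 and 2884 bp, ZEB1 at 2705 and 2781 bp and ZNF609 at 2503 and 2541 bp, while INTS11 lay further off at 3415 and 2089 bp. All proteins but INTS11 thus had a summit close to this place, each being the summit of its list nearest to the HDGF one. The INTS13 summits there were 5.54- and 3.33-fold, those of INTS11 3.51- and 3.61-fold, those of ZEB1 2.85- and 3.18-fold, and those of ZNF609 2.81- and 2.69-fold. The strongest gene-end peaks of INTS13 had summits before the start, at -872 and -1797 bp (5.89- and 3.66-fold). Those of ZEB1 also lay before it, at -913 and -1595 bp (3.51- and 3.31-fold). For ZNF609 they lay at 5353 and 6699 bp (2.58- and 3.50-fold), the first of them lower than its summit at 2503 bp. A fold of one antibody cannot be set against that of another as an amount of protein, since each list has its own background.

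EPHX1 was covered by a string of HDGF peaks along its whole length, 13 in replicate 1 and 18 in replicate 2. The strongest was the last, with summits 35911 and 35514 bp from the start, which is 472 and 75 bp past the 3′ end. This peak covered chr1:225844400-225848846 in replicate 1 and chr1:225843932-225848927 in replicate 2. That stretch also belongs to TMEM63A, a membrane protein gene read from the other strand, whose 3′ part overlaps EPHX1 by 5008 bp, and the peaks cannot be assigned to either gene. ZEB1 replicate 2 and INTS11 replicate 2 had summits 102 and 160 bp from the HDGF replicate 1 summit, and 6 of the 9 other lists had one within 1000 bp. INTS13 covered the same part in peaks of 33944 and 38341 bp, whose highest points lay 4307 and 11272 bp past the 3′ end. ZNF609 replicate 1 had its strongest gene-end peak at the other end, 2209 bp after the start, at 3.87-fold.

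The HDGF peak shared by ARF1 and C1orf35 spanned the gap between them, over chr1:228095713-228102064 in replicate 1 and chr1:228095363-228102040 in replicate 2. The 2 peaks overlapped by 6328 bp, yet their summits were 3777 bp apart, 14638 bp from the ARF1 start in replicate 1, inside ARF1, and 18415 bp in replicate 2, inside C1orf35. The position of the highest point within this peak was therefore not reproduced. The replicate 1 summit lay 5 bp past the hairpin of MIR3620, a microRNA annotated within ARF1 at chr1:228097263-228097341, and ZNF609 replicates 1 and 2 had summits 70 and 164 bp from it. INTS13 covered both genes in 1 peak, 40481 bp wide in replicate 1 and 40733 bp in replicate 2, and INTS11 replicate 1 did so in a peak of 40700 bp. Peaks of that width touch the ends of both genes whatever the position of their summits.

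At the facing 3′ ends of CDT1 and APRT, HDGF replicate 1 had its summit at chr16:88809633, in a peak of 847 bp, with 27 fragments. HDGF replicate 2 had a smaller peak 93 bp away, with 16 fragments and a 3.95-fold summit, while its strongest peak was a block of 4662 bp over CDT1 with the summit at 4492 bp from the CDT1 start. INTS11 had summits 146 and 70 bp from the HDGF replicate 1 summit, at 2.07- and 1.95-fold. These 4 summits lay within the last 500 bp of APRT, all 2149 to 2295 bp from its start. INTS13 was highest elsewhere, 27 and 409 bp after the APRT start, at 3.81- and 2.81-fold. Neither ZEB1 nor ZNF609 had a peak within 1 kb of either gene in any of their 4 lists.

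**Figure D1:**
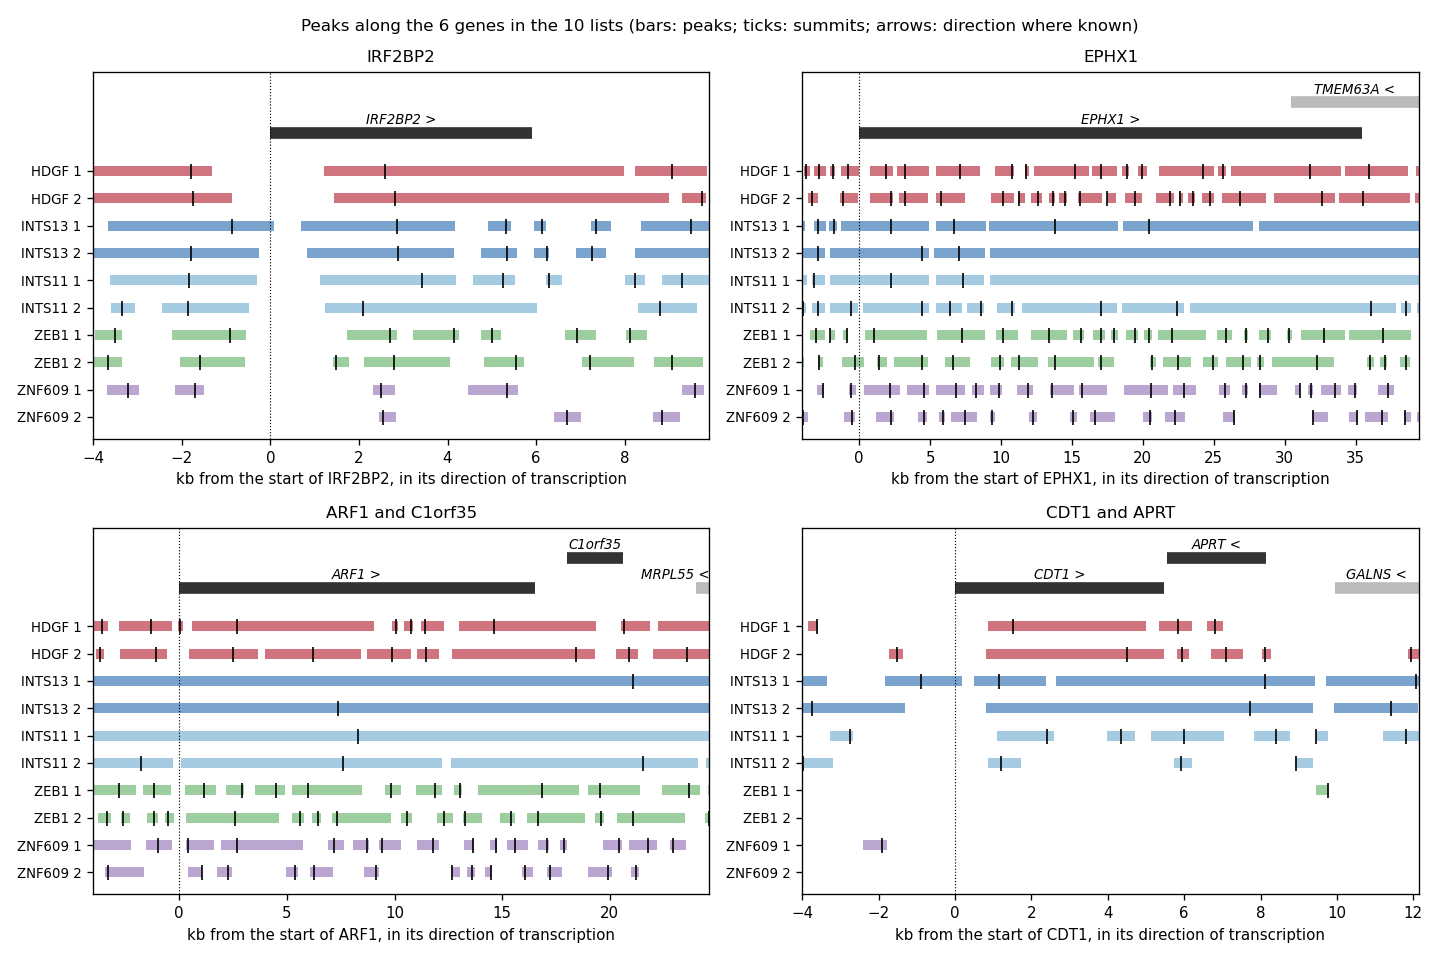
Peaks along the 6 genes in each of the 10 lists. Each panel has distance in kb from the start of the gene named under it on the x axis and 1 row per peak list, with bars for peaks, black ticks for summits, dark bars for the 6 genes and grey bars for neighbours. IRF2BP2 has summits of all 5 proteins between 2 and 4 kb, ARF1 and C1orf35 lie under INTS13 peaks over 40 kb wide, and CDT1 and APRT have no ZEB1 or ZNF609 peak within 1 kb.

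The other 4 antibodies played no part in the choice of the genes, and the question is how often they had a peak at the same gene ends. A gene was counted where both lists of a protein had a peak within 1 kb of its start or end. HDGF had one at 6 of 6 genes, against 26.6% of 19974 protein-coding genes, which follows from the choice. INTS13 had one at 6 of 6 against 65.9%, and INTS11 at 6 of 6 against 20.0%. ZEB1 had one at 4 of 6 against 4.94%, and ZNF609 at 4 of 6 against 2.18%. The 4 in both cases were IRF2BP2, EPHX1, ARF1 and C1orf35, and they were also called for all 5 proteins together, as were 290 genes in all, or 1.45%. With 2 lists per protein an exact two-sided test between proteins cannot go below p = 0.333, so none was made. Where the summit itself had to lie inside the window in both lists, HDGF was left with 4 of 6 genes (EPHX1, C1orf35, CDT1 and APRT), and INTS13 with 2 of 6 (IRF2BP2 and APRT). INTS11 was left with CDT1 and APRT and so with no gene of chromosome 1, while ZEB1 kept 3 of 6 (IRF2BP2, EPHX1 and ARF1) and ZNF609 kept its 4. The shares above belong to the overlap rule, so these summit counts have no share over all genes beside them.

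Ranked among all protein-coding genes, the strength of those peaks separated the 4 genes of chromosome 1 from CDT1 and APRT. For HDGF and INTS13 this depended on which genes were ranked together, as described at the end. For every gene and list the strongest gene-end peak was ranked among all protein-coding genes and written as a percentile, so that lists with different backgrounds could be set side by side. The 4 genes on chromosome 1 stood between 96.2 (IRF2BP2 in ZNF609 replicate 1) and 99.99 in every one of the 10 lists. CDT1 stood at 94.6 and 88.8 for INTS13 and at 74.7 and 85.9 for INTS11. APRT stood at 92.2 and 88.8 for INTS13 and at 74.7 and 79.5 for INTS11. For HDGF both stood at 99.4 in each list. The HDGF values follow from the choice and are no measure against the other proteins, whose lists differ in length.

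**Figure D2:**
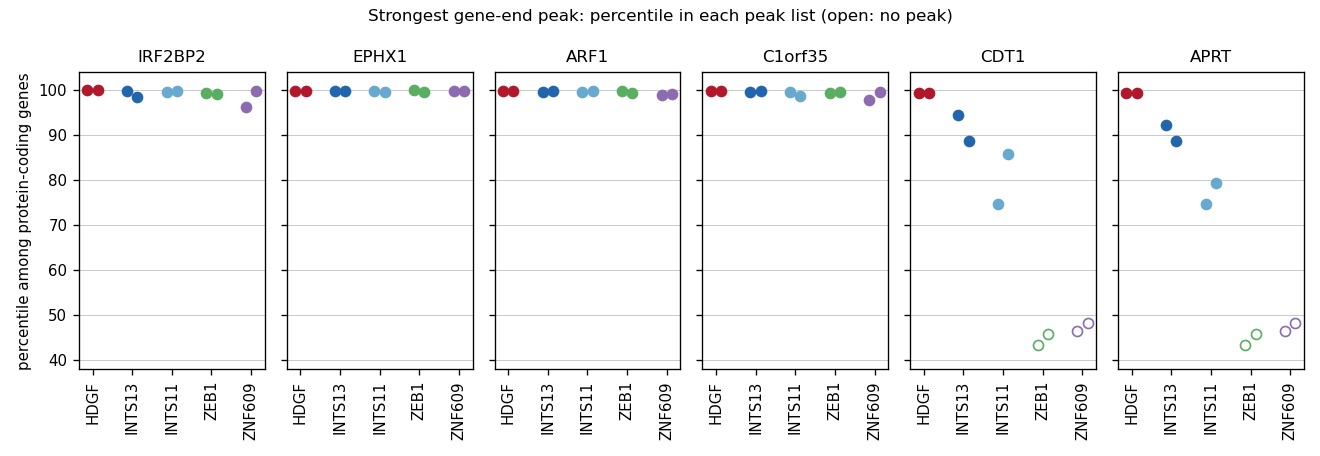
Percentile of each gene's strongest gene-end peak among 19974 protein-coding genes (y axis), for the 5 proteins with 2 lists each, replicate 1 left of replicate 2. The 4 genes on chromosome 1 stay above 96 throughout, while CDT1 and APRT fall to between 74.7 and 94.6 for INTS13 and INTS11 and have open circles, no peak, for ZEB1 and ZNF609.

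The genomic neighbourhood differed in the same way. The genome was divided into bins of 1 Mb and the number of summits in each bin set against the mean bin of the list. For the median of the 10 lists, the bin of EPHX1 held 8.68 times the mean bin, that of IRF2BP2 8.61 times and that of ARF1 and C1orf35 8.36 times, while that of CDT1 and APRT held 1.52 times. The excess was greatest for ZNF609 and ZEB1, at 22.3 to 37.2 times for ZNF609 and 20.3 to 26.0 times for ZEB1 over the 3 bins of chromosome 1. For HDGF it was 6.73 to 9.02 times there and 2.34 and 2.54 times at CDT1 and APRT. INTS13 was the exception, with 1.12 to 2.30 times on chromosome 1 and 3.12 and 2.82 times on chromosome 16, and its peaks of up to 40733 bp at ARF1 count once each. Only 62 of 3038 bins were as dense as those of the chromosome 1 genes, and 382 held over 2 times the mean.

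Among the 434 protein-coding genes in bins as dense, peaks of every protein at gene ends were common. HDGF had one in both lists at 4 of 4 of the chromosome 1 genes against 89.4% of these 434, which follows from the choice. INTS13 had one at 4 of 4 against 98.8% and INTS11 at 4 of 4 against 97.2%. ZEB1 had one at 4 of 4 against 84.1% and ZNF609 at 4 of 4 against 55.8%. All 5 proteins together were called at 48.2% of these 434 genes. Bin density was counted from the summits of the same peak lists, those of ZEB1 and ZNF609 among them. The lower limit was set by the bins of the chromosome 1 genes themselves. High shares in such bins are therefore partly built in. With 4 genes at 3 loci, the counts cannot show whether ZEB1 or ZNF609 differed from the share in bins as dense. Outside the bins over 2 times the mean lay 15445 genes, CDT1 and APRT among them. There HDGF had a peak at both of these genes against 16.4%, INTS13 at both against 57.2%, INTS11 at both against 8.13%, ZEB1 at neither against 0.376% and ZNF609 at neither against 0.0712%. The absence of ZEB1 and ZNF609 at CDT1 and APRT was the rule outside dense bins, where low shares are likewise partly built in.

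**Figure D3:**
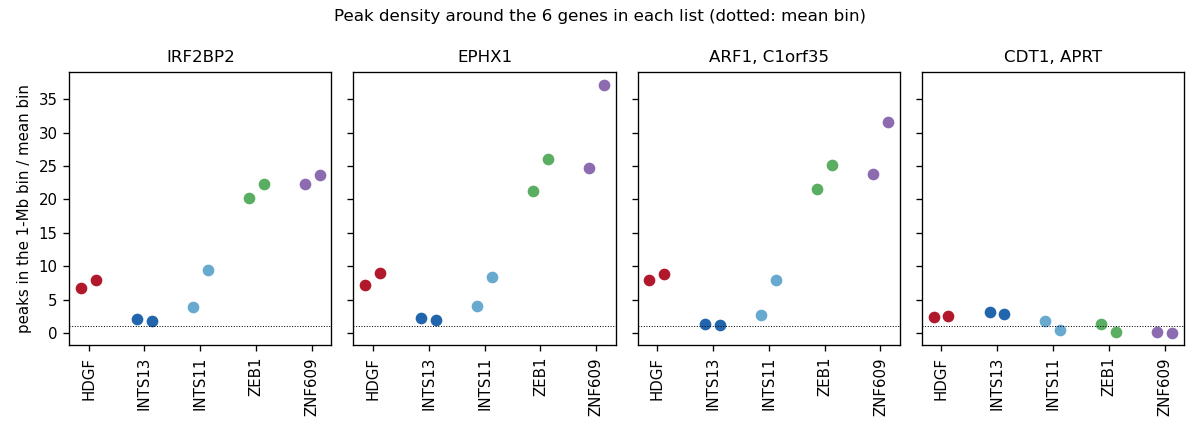
Number of peak summits in the 1-Mb bin that holds each gene, divided by the mean bin of the same list (y axis), for the 5 proteins with 2 lists each. The 3 bins of chromosome 1 hold 20.3 to 37.2 times the mean for ZEB1 and ZNF609, and the bin of CDT1 and APRT holds at most 1.28 times for these proteins.

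The start and the 3′ end were then counted apart. For the 5 genes with a known strand, HDGF had a peak within 1 kb of the start in both lists at 3 of 5 (EPHX1, ARF1 and CDT1) against 15.3% of 15813 genes with a strand, and within 1 kb of the 3′ end at 5 of 5 against 17.2%, both from the gene-end peaks that chose the genes. INTS13 had one at the start of 5 of 5 against 60.1% and at the 3′ end of 5 of 5 against 42.7%. INTS11 had one at the start of 4 of 5, all but CDT1, against 15.4% and at the 3′ end of 5 of 5 against 10.6%. ZEB1 had one at the start of IRF2BP2, EPHX1 and ARF1 against 3.45% and at the 3′ end of the same 3 genes against 2.39%. ZNF609 had one at the start of EPHX1 and ARF1 against 1.03% and at the 3′ end of these and IRF2BP2 against 1.30%. For the other 4 proteins the counts at the ends were equal or differed by 1 gene, and no test of a difference was made. In both HDGF lists the strongest HDGF peak of all 5 touched the window at the 3′ end.

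The start base itself was mostly free of HDGF. It lay under a peak in both HDGF lists at 0 of 5 genes, against 1.98% of 15813 genes, so that 0 of 5 is the usual count. In single lists it was covered for ARF1 in replicate 1, by a peak of 244 bp, and for APRT in replicate 2, by a peak of 241 bp. INTS13 covered the start base in both lists at EPHX1, ARF1 and APRT, against 26.7%, and in 8 of 10 pairs of a gene and a list. INTS11 covered it in both lists at 0 of 5 genes against 3.66%, ZEB1 at 0 of 5 against 0.594% and ZNF609 at 0 of 5 against 0.0696%.

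Around the starts of IRF2BP2, EPHX1 and CDT1, uncovered in both HDGF lists, HDGF peaks stood at varied distances. ARF1 was uncovered in replicate 2 only, with peaks 564 bp upstream and 466 bp downstream. APRT was uncovered in replicate 1 only, with the nearest peaks 14570 bp upstream and 1115 bp downstream. At IRF2BP2 the nearest HDGF peaks ended 1322 and 862 bp upstream and began 1203 and 1436 bp downstream, which left 2524 and 2297 bp free of peaks in replicates 1 and 2. At EPHX1 they lay 9 and 108 bp upstream and 744 and 732 bp downstream, which left 752 and 839 bp. At CDT1 the first downstream peak began at 874 and 812 bp, and upstream none was closer than 3594 and 1361 bp. The downstream edges of the 2 HDGF libraries thus differed by 233 bp at IRF2BP2 and by less at EPHX1 and CDT1.

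The same shape was seen over all genes. At 300 bp after the start 0 of 5 of the genes lay under an HDGF peak in either list, against 3.38% of 15813 genes in replicate 1 and 3.12% in replicate 2, the lowest points within 5 kb of the start. At 2000 bp after it 5 of 5 were covered in replicate 1 and 4 of 5 in replicate 2, against 14.2% and 11.7%. The cover of the 5 genes there came from gene-end HDGF peaks, on which the genes were chosen, so it is no comparison with all genes. INTS13 replicate 1 was highest at the start base itself, with 5 of 5 of the genes against 58.5% of all genes, and INTS13 replicate 2 covered 3 of 5 against 30.5% there. INTS11 replicate 1 covered 3 of 5 at the start base against 19.4%, and INTS11 replicate 2 covered 0 of 5 against 4.71%. At 3′ ends the dip of HDGF over all genes was shallow. Cover was 10.3% and 8.26% at 600 bp before the end, 8.85% and 7.03% at the end base and 9.21% and 7.42% at 300 bp after it, in replicates 1 and 2. The end base was covered at 5 of 5 of the genes in replicate 1 and 4 of 5 in replicate 2. Those counts come from the peaks that chose the genes and cannot show whether a dip is present.

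**Figure D4:**
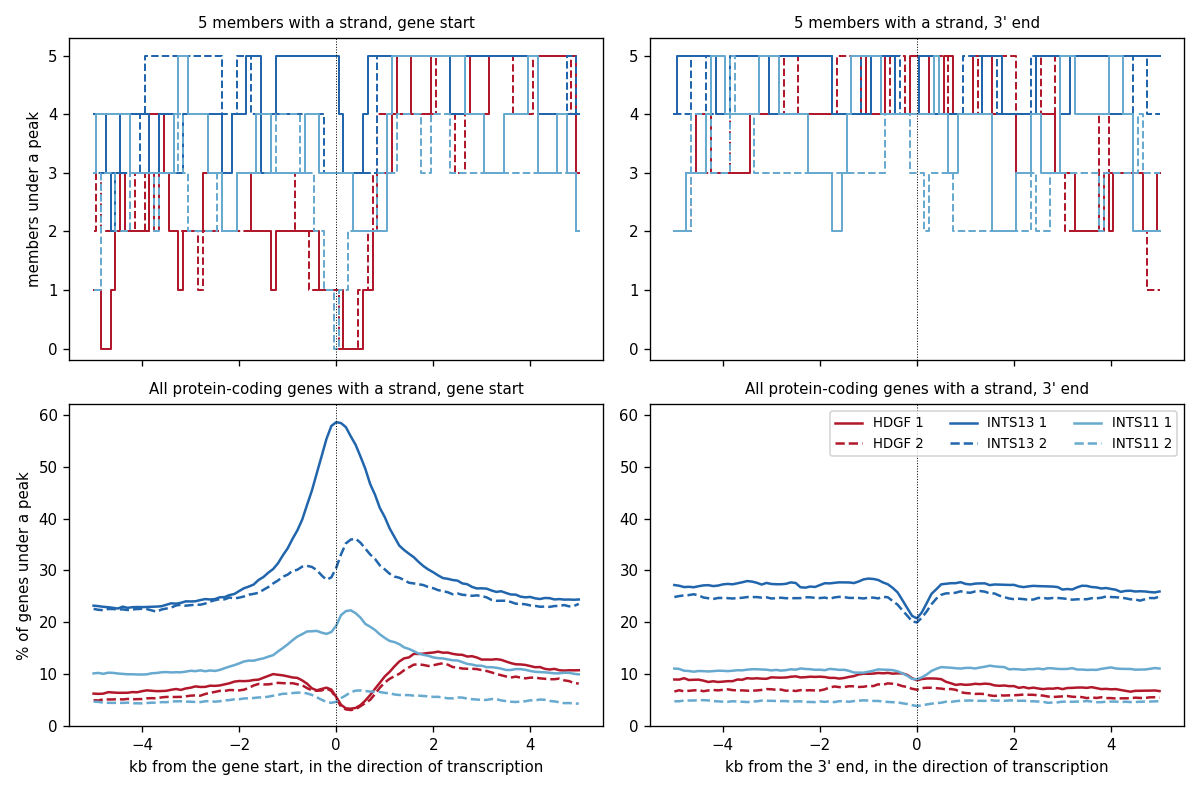
Peak cover by distance from the gene start (left) and the 3′ end (right), in kb in the direction of transcription, for HDGF, INTS13 and INTS11, with replicate 1 as solid and replicate 2 as dashed lines. The upper panels count the 5 genes with a strand and the lower panels give the percentage of 15813 protein-coding genes; HDGF falls to 0 of 5 genes, and to 3.38% and 3.12% of all genes, 300 bp after the start, where INTS13 covers 3 of 5.

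Inside the gene bodies all 5 proteins were present at the chromosome 1 genes. HDGF had a peak in the body in both lists at 6 of 6 genes against 53.1% of protein-coding genes. This follows from the choice, since gene-end HDGF peaks ran into the body of each gene, and the HDGF cover below includes them. INTS13 had one at 6 of 6 against 78.1% and INTS11 at 6 of 6 against 40.3%. ZEB1 had one at 4 of 6 against 15.3% and ZNF609 at 4 of 6 against 9.40%. HDGF peaks covered 79.6% and 75.7% of IRF2BP2, 80.8% and 71.2% of EPHX1, 84.3% and 88.4% of ARF1, 55.0% and 63.8% of C1orf35, 77.5% and 85.2% of CDT1 and 41.8% and 47.7% of APRT. Both libraries placed APRT lowest. INTS13 covered the whole of ARF1, C1orf35 and APRT in both lists. The 2 INTS11 libraries differed most at the chromosome 16 genes, with 47.1% and 15.9% of CDT1 and 70.1% and 17.5% of APRT, and the second INTS11 list was also the shorter one, with 106177 peaks against 195349 in replicate 1. ZNF609 covered 27.2% and 6.75% of IRF2BP2, 64.1% and 33.6% of EPHX1 and 62.5% and 32.3% of ARF1, less in replicate 2, the shorter list. For C1orf35 the order was the other way, with 33.6% in replicate 1 and 43.0% in replicate 2.

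**Figure D5:**
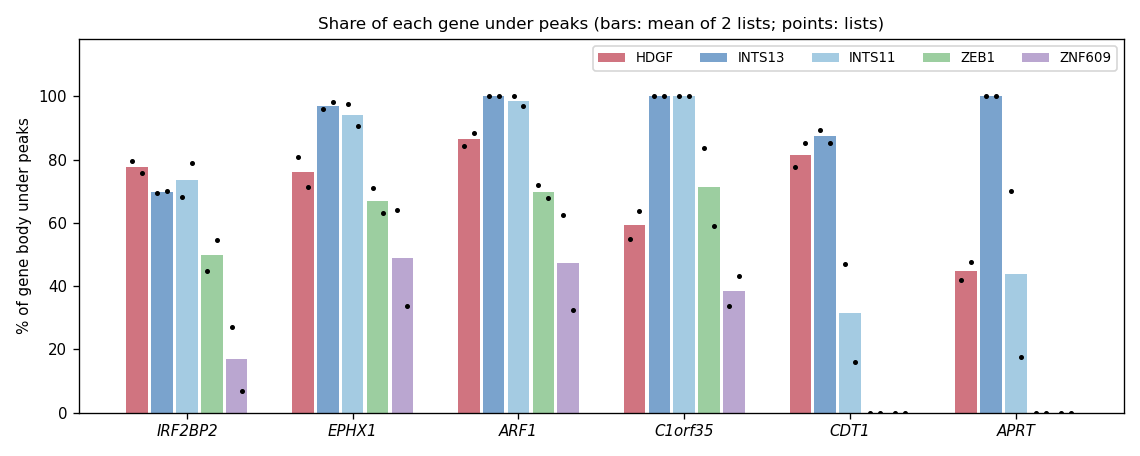
Percentage of each gene's length under peaks (y axis), with bars for the mean of the 2 lists of a protein and points for the lists. HDGF covers 41.8% to 88.4% of every gene, and ZEB1 and ZNF609 cover none of CDT1 and APRT.

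The nearest protein-coding gene on either side of each of the 6 was also looked up. SRP9, which lies before EPHX1 and codes for a subunit of the signal recognition particle, had HDGF gene-end peaks of 6.31- and 6.04-fold, and all 5 proteins were called there. WNT3A, a signalling ligand gene before ARF1, and MRPL55, a mitochondrial ribosomal protein gene after C1orf35, were also called for all 5. TARBP1 and TOMM20 on either side of IRF2BP2, and TMEM63A, were called for HDGF, INTS13, INTS11 and ZEB1 but not for ZNF609. TOMM20, a receptor of mitochondrial protein import 499162 bp from IRF2BP2, had HDGF gene-end peaks of 5.72- and 7.90-fold. On chromosome 16, PIEZO1, a mechanosensitive channel gene, had HDGF peaks of 3.55- and 4.65-fold. GALNS, a lysosomal sulfatase gene only 1805 bp from the APRT start, had no HDGF gene-end peak in either list, although INTS13 and INTS11 were called at its ends. The outer neighbours of the chromosome 1 genes stood at percentiles of 97.2 to 99.97 for HDGF.

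Related genes were looked up by family. Over 23 relatives in 5 lists, 10 genes had HDGF gene-end peaks in both lists, against 26.6% of all protein-coding genes, and 16 had INTS13 peaks, against 65.9%. INTS11 peaks were found at 4 of them, against 20.0% of all genes, a ZEB1 peak at AMPD2 alone, against 4.94%, and ZNF609 peaks at 0, against 2.18%. IRF2BP1 (4.93- and 5.57-fold) and IRF2BPL (3.55- and 3.95-fold), the paralogs of IRF2BP2, both had HDGF and INTS11 peaks. ARF3, ARF4, ARF5 and ARF6 all had HDGF and INTS13 peaks and none had INTS11 peaks in both lists. None of EPHX2, EPHX3 and EPHX4 had HDGF peaks in both lists. In purine salvage ADK and AMPD2 had them, of 6 genes other than APRT, and in replication licensing GMNN, which codes for the CDT1 inhibitor geminin, and ORC1 had them, of 8 genes other than CDT1.

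The genes most alike in their 10 percentiles were found by Euclidean distance among protein-coding genes over 1 Mb from all 6. IRF2BP2 was nearest to ZNF771 (1.94 percentile points) and TMUB1 (2.30). EPHX1 was nearest to the readthrough gene TPTEP2-CSNK1E (0.406) and to TMEM184B (0.417), ARF1 to CSNK1E (0.917) and ANO8 (0.999), and C1orf35 to YARS1 (1.58) and RNF40 (1.78). All 8 of these lie in bins over 2 times as dense as the mean. CDT1 and APRT were both nearest to PFKL (5.67 and 8.21) and SCO2 (7.51 and 8.22), with PFKL in a dense bin and SCO2 not. Among the 6 themselves, CDT1 and APRT were 6.82 points apart and each was over 100 points from every chromosome 1 gene, from 109.8 to 113.3. These distances mostly restate the absence of ZEB1 and ZNF609 peaks. In those lists CDT1 and APRT stood at the mid-rank of genes without a peak, from 43.4 to 48.3.

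Facing 3′ ends were the last feature compared, with a distance chosen after the genes had been seen. A 3′ end of a protein-coding gene on the other strand lay within 10 kb of the 3′ end at 4 of 5 genes, against 25.6% of 15813. CDT1 and APRT, 1 facing pair, were both counted among the 4. In the shares below, a peak between facing ends can likewise count for both genes, and dense bins were not set apart. Over all genes HDGF had a peak at the 3′ end in both lists at 27.5% of those with such a neighbour, against 13.6% of the others. The corresponding values were 55.2% against 38.4% for INTS13, 14.0% against 9.46% for INTS11, 2.86% against 2.23% for ZEB1 and 1.28% against 1.31% for ZNF609.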

How the data were processed

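ChIP-seq of 5 proteins in HEK293T cells was analysed from 10 deposited peak lists. Per the submitters' processing notes, the authors used FastQC, Trimmomatic, Bowtie, Picard and MACS2, with the build, settings and versions not given in the sources used here. Contig names in the files are those of GRCh38. The deposited lists give, per peak, the authors' score, the fold (a ratio of pileup to background), the −log10 p, the −log10 q and the summit. The lists held 26417 to 417057 peaks and were called per library. The deposited −log10 p of every peak equalled that of a Poisson count with 1 constant background per list to within 0.000480, which gave whole summit fragments.

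With Python 3.11.15, pandas 2.3.3 and SciPy 1.17.1, peaks were joined to RefSeq genes (GRCh38.p14) by an overlap of at least 1 bp with the window within 1 kb of an end, or with the gene body. Genes without a peak ranked last, with ties at their mid-rank. The steps were tested on simulated peaks. The members and lists were chosen with earlier results of these data known. The genes named are the 6, their fixed families, both neighbours of each and the 2 most alike genes of each. Alternative windows, stricter peaks, summits, single replicates and dense bins were tried, and no tests were planned. The bins as dense as those of the chromosome 1 genes were picked after seeing the data.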

Additional observations from a re-analysis of the deposited data

How the results depend on the processing

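Of 55 recounts of the 6 genes, 49 stayed within 1.5 times the main count, among them every recount from replicate 1 or replicate 2 alone, with windows of 500 bp or 2 kb, or with the peaks of both lists merged into regions, an alternative chosen after seeing the data. With the summit required inside the window, 2 genes kept an INTS13 gene-end peak and 2 an INTS11 gene-end peak, by construction fewer where peaks are broad. With −log10 q of at least 5, ZEB1 gene-end peaks were left at 2 genes, ZNF609 gene-end peaks at 0 and ZNF609 gene-body peaks at 1, and with the 10000 peaks of lowest p in each list ZNF609 gene-end peaks were left at 2. The shares over all genes given above belong to the full lists. The counts under these stricter rules have no such share beside them and cannot be read as high or low. The HDGF gene-end count was 4 with the summit required inside the window and 6 under the other alternatives.

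The median percentile of the 6 genes was 99.85 with HDGF peaks, and INTS13 had 99.4, INTS11 99.5, ZEB1 99.4 and ZNF609 98.2. Ranked by largest width, HDGF had 99.56, INTS13 97.9, INTS11 98.8 and ZEB1 99.3. Ranked among genes of the same bin class, HDGF had 99.78, INTS13 98.7, INTS11 97.9, ZEB1 97.4 and ZNF609 92.7. In that ranking CDT1 (98.4) and APRT (97.9) stood above IRF2BP2 (96.6) for INTS13, as means of 2 lists. For HDGF both stood at 99.96, above EPHX1 (99.50) and ARF1 (99.41). For INTS11, ZEB1 and ZNF609 they stayed below all 4 genes of chromosome 1. The window of 500 bp gave 99.87 (HDGF) and 85.7 (ZEB1), and that of 2 kb 99.83 (HDGF) and 99.2 (ZEB1). The cause was not tested. The 6 summit distances moved by less than the spread between lists. No paired analysis was possible because the results come from no test. Weak ZEB1 and ZNF609 peaks, of 16 to 18 fragments at the least, limit the calls for these proteins.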
